A study of Mus musculus with 6 samples.

Results

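The Twist, Snail, Zeb and Prrx families are represented here by 8 transcription factor genes, Twist1, Twist2, Snai1, Snai2, Zeb1, Zeb2, Prrx1 and Prrx2. They were taken by name, out of 18193 genes that a probe set of the array reports alone. A probe set is a group of short probes that reads 1 transcript, and each gene is described by its brightest probe set, with its other probe sets as a check. The mice were FVB/N and wild-type, and the embryos were taken on embryonic day 13, at Theiler stage 21, with sex unknown. Their bladder neck and urethra were cut out, and after trypsin digestion the tissue was parted into urothelium, called epithelium below (arrays 1, 2 and 5), and mesenchyme (arrays 1, 2 and 3), and each sample was hybridised to its own Affymetrix Mouse Genome 430 2.0 array. The question was which of these factors differ between the layers. Samples were not pooled, but the labels do not say that each came from its own embryo, so the p-values measure the spread between these samples, which may be technical.

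Twist1 and Twist2 are basic helix-loop-helix proteins that bind E-box motifs in DNA together with partner proteins of the same class, and Twist1 is known for its part in the skeleton and connective tissue of the head and limb. Snai1 and Snai2 are zinc finger repressors of the Snail family, and Zeb1 and Zeb2 are larger zinc finger and homeodomain proteins; both families bind E-boxes and repress epithelial genes such as Cdh1, which encodes E-cadherin. Prrx1 and Prrx2 are paired-related homeodomain proteins of embryonic mesenchyme. All of them are known from the change of epithelial cells into mesenchymal cells and from the maintenance of mesenchyme.

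The array labelled mesenchyme 1 stood apart, and the differences between the layers of the 8 factors are given with and without it. Across probe sets, which are not independent replicates, it correlated at 0.860 and 0.848 with mesenchyme 2 and 3, which correlated at 0.976 with each other, and the epithelial arrays correlated at 0.919 to 0.952. The liver transcript Alb read 58365 signal units there and 100.3 to 216 elsewhere, and epidermal Flg 12314 against at most 25.7. The summed signal of 10 epithelial markers was 192001 to 216978 on the epithelial arrays, 14044 and 2825 on mesenchyme 2 and 3, and 88315 on mesenchyme 1. The summed signal of 10 mesenchymal markers was 33644 to 50543 on the epithelial arrays and 212916 to 270534 on the mesenchymal ones, so the labelled layers carried their markers, and neither layer was free of the other's. Mesenchyme 1 was also the highest array for markers of skeletal muscle (90196 against 524 to 21667) and of macrophages and leukocytes (40998 against 2963 to 11198). The part of these tissues in the results below was not tested.

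All 8 genes had a mean signal above the limit for testing. With all 6 arrays, 3 of the 8 were higher in mesenchyme (Zeb1, Zeb2 and Prrx1) and none was higher in epithelium, by limma at an adjusted p under 0.05. Over all 13717 genes tested, the shares were 4.03% higher in mesenchyme and 1.95% higher in epithelium. Without mesenchyme 1, 6 of the 8 were higher in mesenchyme, Twist1, Twist2 and Prrx2 having joined, against 8.17% of 13587 genes, and 6.37% were higher in epithelium. For the remaining pair, Snai1 and Snai2, the layers overlapped in both settings on the brightest probe sets. On the second set of Snai2, mesenchyme 2 and 3 lay above all epithelial arrays, as given below. The median log2 difference of epithelium minus mesenchyme over all tested genes was 0.12 with all arrays and 0.02 without mesenchyme 1, and it is not subtracted here. In whole tissue, fewer cells of a kind and less RNA per cell cannot be told apart.

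**Figure D1:**
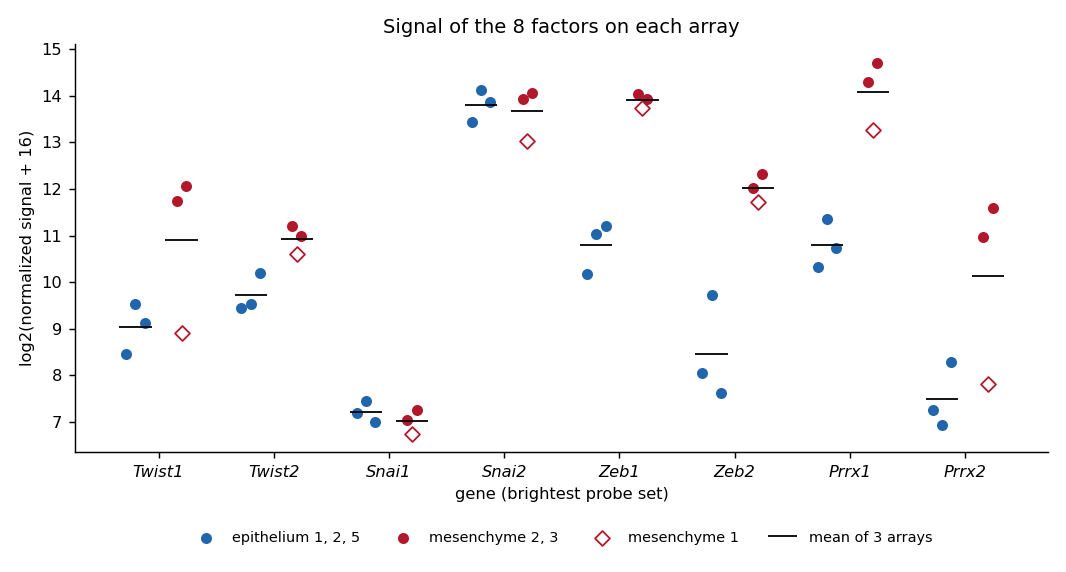
Signal of each factor on each of the 6 arrays, as log2 of the quantile-normalized signal plus 16, with points for single arrays and a bar for the mean of 3. Zeb1, Zeb2, Prrx1 and Twist2 have every mesenchymal array above every epithelial one, whereas for Twist1 and Prrx2 mesenchyme 1 (open diamond) lies among the epithelial arrays. Heights of different genes come from different probes and are not comparable.

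Zeb1 gave the smallest adjusted p of the 8 with all arrays. Its normalized signal was 1135, 2077 and 2332 on epithelium 1, 2 and 5, and 13730.1, 16802 and 15512 on mesenchyme 1, 2 and 3. The layers did not overlap, and the lowest mesenchymal array lay well clear of the highest epithelial one. The log2 difference of epithelium minus mesenchyme was -3.10 ± 0.327 (SE, n = 3 arrays per layer), or 8.59-fold, with an adjusted p of 0.00455 in limma, and -3.20 ± 0.347 (9.22-fold, adjusted p = 0.00177) without mesenchyme 1. The second probe set of Zeb1 read 176 to 289.8 on the epithelial arrays and 873 to 1852 on the mesenchymal ones, and it also passed when every probe set was tested on its own (-2.54, adjusted p = 0.0185, and -2.96, adjusted p = 0.00222, without mesenchyme 1).

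Zeb2 showed the largest difference of the 8 with all arrays and the widest epithelial spread. It read 249, 833 and 179 on epithelium 1, 2 and 5, and 3380.2, 4138 and 5135 on mesenchyme 1, 2 and 3. Mesenchyme was above epithelium on every array, and epithelium 2 was the highest of its layer. The difference was -3.56 ± 0.568 (11.8-fold, adjusted p = 0.015) in limma, and -3.80 ± 0.615 (14.0-fold, adjusted p = 0.00703) without mesenchyme 1. The call was lost with all arrays when epithelium 1, epithelium 5, mesenchyme 2 or mesenchyme 3 was left out (adjusted p = 0.0868, 0.0653, 0.0643 and 0.0536), and with the mean of the gene's 5 probe sets (-1.60, adjusted p = 0.0781). Without mesenchyme 1 it was lost when mesenchyme 3 was left out as well (adjusted p = 0.0694).

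The reading of epithelium 2 was set beside markers of other cells on that array. Of 10 mesenchymal markers, 3 were highest on epithelium 2 among the epithelial arrays and 4 were lowest there: Pdgfra, a growth factor receptor of mesenchyme, read 8820.4 against 2663 and 3733 on epithelium 1 and 5, whereas its relative Pdgfrb read 584 against 1137 and 1178. The summed signal of 7 endothelial markers was 1913 on epithelium 2, against 627 and 954, and 14158 to 19170 on the mesenchymal arrays. Among the epithelial arrays, the sum for macrophages and leukocytes was lowest on epithelium 2, though close to epithelium 1 (2963, against 2993 and 6233). Single markers of that list went both ways. Ptprc read 499 on epithelium 2, against 21.9 and 17.1 on epithelium 1 and 5, and Csf1r read 925 against 1657 and 3020. The sum for neural crest and glia was also lowest on epithelium 2 (17205, against 24706 and 22744). Most of it was Erbb3, which read higher on every epithelial array than on the mesenchymal ones, so this sum says little of glia. S100b read 103 on epithelium 2, against 55.7 and 24.0 on epithelium 1 and 5, and Fabp7 read 11.7 against 99.7 and 92.1. Zeb2 is also known from glia and macrophages, and the share of other cell types in its signal was not tested.

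Prrx1 read 1263, 2615 and 1678 on epithelium 1, 2 and 5, and 9852, 20017 and 26907 on mesenchyme 1, 2 and 3. The layers did not overlap, but mesenchyme 1 was the lowest of its group. The difference was -3.29 ± 0.444 (9.77-fold, adjusted p = 0.00941) in limma and -3.71 ± 0.346 (13.1-fold, adjusted p = 0.00123) without mesenchyme 1. With all arrays the call was lost when epithelium 1, epithelium 5 or mesenchyme 2 was left out (adjusted p = 0.0559, 0.0526 and 0.0508). The gene has 6 probe sets, and the mesenchymal arrays lay above the epithelial ones on each, an order found in 11% of all probe sets tested. Set 6 read at most 20.1 on any array, below the limit for testing, and is not interpreted. With each set tested on its own in limma, sets 1 and 2 passed with all arrays (adjusted p = 0.0104 and 0.0455). Sets 3 to 5 did not (0.0716, 0.118 and 0.202), and sets 1 to 5 passed without mesenchyme 1 (at most 0.0182).

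Prrx2, the close relative of Prrx1, behaved differently on mesenchyme 1. Its signal was 136, 105 and 294 on epithelium 1, 2 and 5, and 208, 1989 and 3093 on mesenchyme 1, 2 and 3. Mesenchyme 1 thus read within the epithelial range, while the other mesenchymal arrays were far above it. The difference was -2.64 ± 0.975 (adjusted p = 0.19) with all arrays, and -3.89 ± 0.464 (14.9-fold, adjusted p = 0.00229) without mesenchyme 1, the largest of the 8 in that setting.

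Twist1 showed the same split. Its signal was 333, 724 and 545 on epithelium 1, 2 and 5, and 467, 3389 and 4294 on mesenchyme 1, 2 and 3. Mesenchyme 1 again read like epithelium. The difference was -1.87 ± 0.828 (adjusted p = 0.273) with all arrays, its 95% interval reaching from -3.82 to 0.07, and -2.94 ± 0.375 (7.69-fold, adjusted p = 0.00285) without mesenchyme 1.

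Twist2 had a smaller difference. It read 680.5, 719 and 1158 on epithelium 1, 2 and 5, and 1534, 2358 and 2010.3 on mesenchyme 1, 2 and 3. All mesenchymal arrays were above all epithelial ones, which held for 13.2% of all genes tested, and without mesenchyme 1 for 22.3%. The difference was -1.21 ± 0.352 (2.31-fold, adjusted p = 0.105) with all arrays and -1.42 ± 0.321 (2.67-fold, adjusted p = 0.0271) without mesenchyme 1. In that setting the call was lost on leaving out epithelium 1, mesenchyme 2 or mesenchyme 3 (adjusted p = 0.106, 0.232 and 0.155).

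The Snail genes did not follow this pattern. Snai1 read 130.4, 159 and 111 on epithelium 1, 2 and 5, and 91.2, 116 and 137 on mesenchyme 1, 2 and 3. The layers overlapped, and all 6 readings lay near 96.3, the mean signal a probe set had to exceed to be tested. Without a detection call per probe set, whether these readings were above background is not known. The difference was 0.20 ± 0.443 (adjusted p = 0.838, 95% interval -0.84 to 1.24) with all arrays and 0.06 (adjusted p = 0.953, 95% interval -0.96 to 1.08) without mesenchyme 1.

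Snai2 has 2 probe sets. The brightest, of the kind that can match several transcripts, read 11109, 17860.2 and 14899 on epithelium 1, 2 and 5, and 8406, 15731 and 17077 on mesenchyme 1, 2 and 3. The layers overlapped, mesenchyme 1 being the lowest of all arrays. The difference was 0.13 ± 0.324 (adjusted p = 0.854, 95% interval -0.63 to 0.89) with all arrays and -0.19 ± 0.225 (adjusted p = 0.669, 95% interval -0.72 to 0.34) without mesenchyme 1. The intervals leave room for a difference of less than 2-fold in either direction. On the second probe set, which is of the unique kind, epithelium 1, 2 and 5 read 1399, 2300.4 and 2481, mesenchyme 2 and 3 read 3455 and 3569, and mesenchyme 1 read 378. Here mesenchyme 2 and 3 lay above all epithelial arrays, with a difference of -0.82 ± 0.295 that did not pass over probe sets (adjusted p = 0.18), and with mesenchyme 1 included it was 0.25.

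Mesenchyme 1 therefore divided the 6 genes that were higher on mesenchyme 2 and 3. On the log2 scale, with the epithelial mean as 0% and the mean of mesenchyme 2 and 3 as 100%, mesenchyme 1 stood at 92.7% for Zeb1 and 88.0% for Zeb2. It stood at 66.6% for Prrx1 and 63.6% for Twist2. For Prrx2 and Twist1 it stood at 8.55% and -4.20%, which is the epithelial level. In the genes of the mesenchymal state, described below, this array lay 0.08 log2 units above mesenchyme 2 and 3 in the median. Single genes of that list went both ways on mesenchyme 1. Col1a1 read 27273 there against 5443 and 5090 on mesenchyme 2 and 3, and Cdh2 read 5774 against 12635 and 15087. These are readings of 1 array and carry no test.

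**Figure D2:**
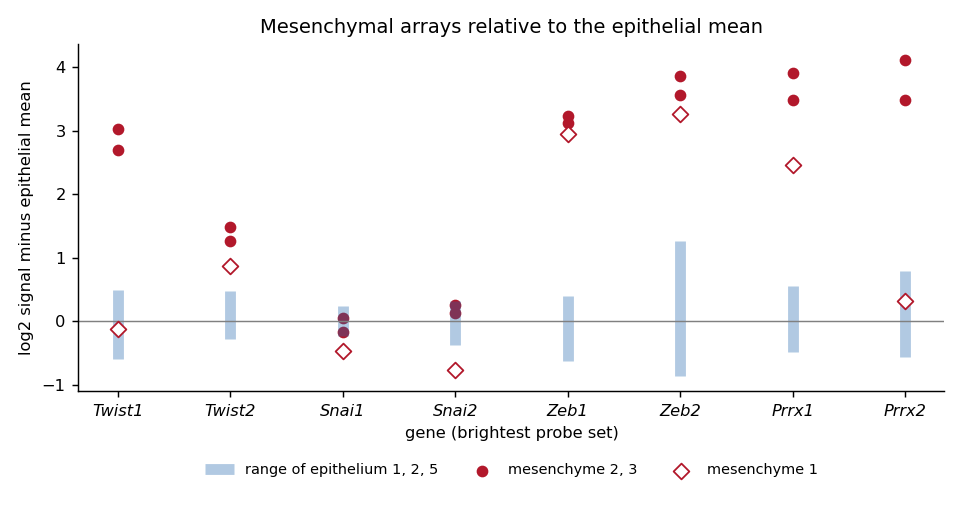
Log2 signal of the 3 mesenchymal arrays minus the epithelial mean, per gene, with the range of the epithelial arrays as a blue bar. The open diamond of mesenchyme 1 is close to mesenchyme 2 and 3 for Zeb1 and Zeb2, between them and epithelium for Prrx1 and Twist2, and inside the epithelial range for Twist1 and Prrx2.

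The 2 genes of each family were set against each other by their log2 difference within an array, which asks whether the layers differ by unequal amounts. For Twist1 minus Twist2 this was -0.998, 0.01 and -1.07 on epithelium 1, 2 and 5, and -1.68, 0.52 and 1.09 on mesenchyme 1, 2 and 3. Mesenchyme 2 and 3 lay above all epithelial arrays and mesenchyme 1 below them. Over all 6 arrays the layers differed by -0.66 in Twist1 minus Twist2, by 0.07 in Snai1 minus Snai2, by 0.46 in Zeb1 minus Zeb2 and by -0.64 in Prrx1 minus Prrx2. Exact permutation tests (two-sided) gave p = 0.6, 0.7, 0.7 and 0.5, all 0.7 after adjustment over the 4 pairs, where 3 arrays against 3 cannot give less than 0.1. With mesenchyme 2 and 3 alone these values were -1.49, 0.25, 0.53 and 0.10.

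Members also resembled each other to different degrees. As a measure of likeness, the mean-centred log2 values of 2 genes were compared by their root mean square distance over the arrays, where 0 means an identical profile. Over 6 arrays Zeb1 and Prrx1 were 0.45 apart, and Zeb2 and Prrx1 0.52. Twist1 and Zeb1 were 1.13 apart over 6 arrays and 0.28 over the 5 without mesenchyme 1, and Twist1 and Prrx2 0.69 and 0.75. Snai1 and Snai2 were 0.27 apart, both profiles being nearly level between the layers on the brightest probe sets.

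The 8 genes have 21 probe sets in all, of which 17 passed the limit on low signal. Of the 9 passing sets that were not the brightest of their gene, 7 had all mesenchymal arrays above all epithelial ones, and 8 did so without mesenchyme 1, against 11% and 19.8% of all probe sets tested. With every probe set tested on its own, 2 of the 9 passed adjusted p 0.05 with all arrays and 6 without mesenchyme 1, all higher in mesenchyme, where the shares were 2.9% of 23465 probe sets and 5.76% of 23461. Of the 9, the second Snai2 set alone had a positive difference, and only with mesenchyme 1 included. Sizes varied, as the other passing sets of Prrx1 ran from -1.60 to -2.84 with all arrays, and the third set of Zeb2 gave -0.28 with overlapping layers. The 4 sets below the limit, of Zeb1, Zeb2 and Prrx1, read at most 335 on any array, and their differences are not interpreted.

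**Figure D3:**
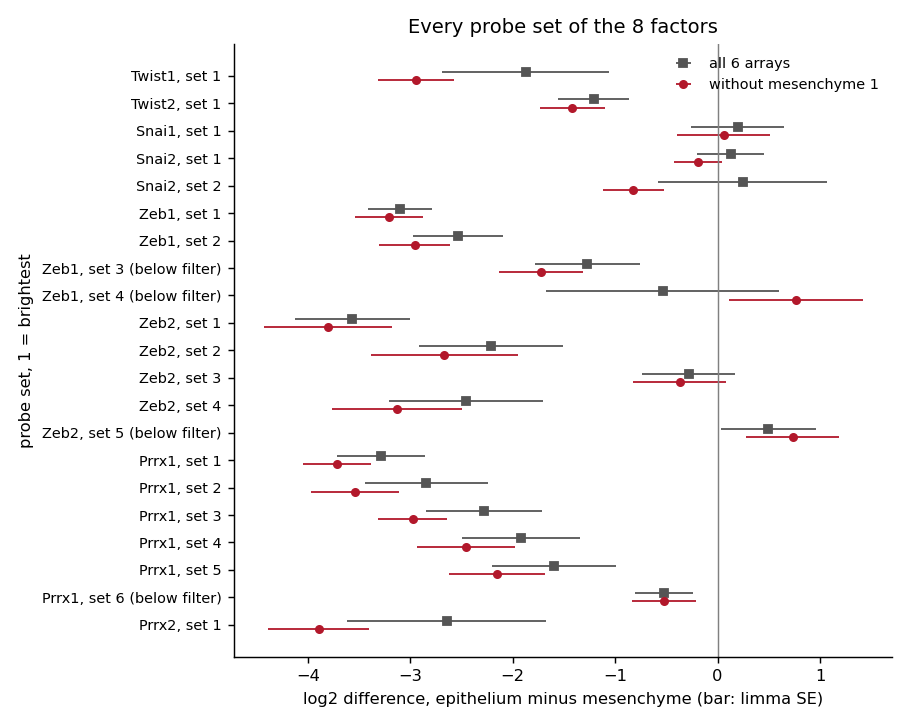
Log2 difference of epithelium minus mesenchyme for all 21 probe sets, with the limma standard error, for all 6 arrays (squares) and without mesenchyme 1 (circles). The brightest sets of Zeb1, Zeb2 and Prrx1 lie beyond -3 in both settings, Twist1 and Prrx2 move left when mesenchyme 1 is left out, and the Snai1 and Snai2 sets lie near 0 or, for the second set of Snai2, cross it.

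Of all genes tested, those closest to Zeb1 over the 6 arrays were Ctla2a (distance 0.11), the Notch modulator Dtx1 (0.18) and Fgd5 (0.20). Closest to Zeb2 were Clec14a (0.22), a lectin-like protein of endothelium, the Notch-modifying enzyme Mfng (0.28) and Iqgap2 (0.28). The nearest to Prrx1 were the forkhead factor Foxc2 (0.19), Fam13c (0.27) and the sodium channel gene Scn3a (0.27), and the nearest to Prrx2 were the T-box factor Tbx2 (0.23), Sntg2 (0.36) and Hpse2 (0.50). Twist1 lay closest to Tmem132c (0.15), to Has2 (0.25), which makes hyaluronan, and to Col23a1 (0.27), and Twist2 to Mn1 (0.14), the cyclin gene Ccnd1 (0.15) and Stard9 (0.17). On their brightest probe sets, Snai1 and Snai2 had level profiles, shared with many genes. Snai1 lay closest to Arpp19 (0.04), D2hgdh (0.06) and Stk38 (0.07), and Snai2 to Triap1 (0.09), Dut (0.09) and Zfas1 (0.09). Of these 24 pairs, 3 were again among the nearest without mesenchyme 1 (Snai1 with Arpp19, Zeb1 with Ctla2a and Prrx2 with Tbx2).

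Epithelial genes that Snail and Zeb factors are known to repress were higher in epithelium. Zeb1 and Zeb2 read lower in that layer, whereas the layers overlapped on the brightest set of Snai2. The listed genes were chosen as genes of epithelia, and Cdh1, Epcam, Krt8, Krt18, Cldn4 and Cldn7 are also among the epithelial markers. Their direction was therefore largely set in advance, and repression was not tested. Of 24 such genes, 23 were tested; 8 were higher in epithelium with all arrays and all 23 without mesenchyme 1, and none was higher in mesenchyme. Their median log2 difference was 3.51 and 4.30, against 0.12 and 0.02 for all tested genes. Cdh1 read 16749.9, 22186 and 10617 on epithelium 1, 2 and 5, 770.4 and 30.1 on mesenchyme 2 and 3, and 8159.6 on mesenchyme 1. It missed the threshold with all arrays (4.57 ± 1.64, adjusted p = 0.18) and passed without mesenchyme 1 (6.46 ± 1.07, 88.0-fold, adjusted p = 0.00766).

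Among the 8 that passed with all arrays were Grhl2 (4.83 ± 0.452, 28.5-fold, adjusted p = 0.0039) and Ovol1 (3.77), transcription factors of epithelia, and Cldn3 (4.57), a tight junction protein. Without mesenchyme 1 these differences were 5.08, 4.30 and 5.84. Mesenchyme 1 read above both other mesenchymal arrays for 22 of the 23 genes and below all epithelial arrays for 21. The array's other-tissue signal, given above, includes epithelial organs. In the median it lay 2.55 log2 units above mesenchyme 2 and 3, where the epithelial arrays lay 4.20 above them. Zeb1 and Zeb2 were thus at nearly the full mesenchymal signal on an array that also carried signal of these epithelial genes. This describes the summed RNA of 1 sample and not single cells.

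The hexamer CACCTG, on the other strand CAGGTG, is the E-box known to be bound by Snail and Zeb proteins. It was searched in RefSeq promoter sequences of mouse assembly GRCm38.p6, from 250 bases before to 50 bases after each annotated gene start. Of the 24 repression targets, 16 were matched to the table, and 13 of these (81.2%) had the hexamer in at least 1 promoter, against 22.6% of all 27025 genes matched. Cdh1 was among the targets without a match. Counted by promoter, 16 of 22 held it (72.7%), against 20.2% of 32851, and 9 of 22 held it more than once (40.9%), against 2.88%. Of the mesenchymal state genes, 1 of 11 held it. Overlapping promoters of the same gene were counted apart, so some hexamers count more than once by promoter. Both promoters of Crb3 hold the same copies, and those of Ocln share a copy. The targets were listed from knowledge of the field, which rests in part on such motifs, so the counts are a description and no test was made.

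Of the 8 factors themselves, 6 were matched, and Snai1 alone held the hexamer, 126 bases before its start; Snai2 and Zeb1 were not matched. The promoters below are those of Snai1, of Epcam, a cell adhesion protein of epithelia, of the claudin gene Cldn4, of the polarity gene Crb3, which had 4 copies of the hexamer, and of Patj, another polarity gene. Other promoters of Patj, chr4:98410777-98411076 and chr4:98546384-98546683, lack the hexamer and are not shown. Another promoter of Crb3, chr17:57061981-57062280, holds the same 4 copies and is not shown. The promoters shown were picked after their values were seen, to set the hexamer beside the signals of the factors and their targets. The capitals mark each CACCTG or CAGGTG. Each is written 5′ to 3′ on the gene's own strand.
Snai1, chr2:167537945-167538244, plus strand: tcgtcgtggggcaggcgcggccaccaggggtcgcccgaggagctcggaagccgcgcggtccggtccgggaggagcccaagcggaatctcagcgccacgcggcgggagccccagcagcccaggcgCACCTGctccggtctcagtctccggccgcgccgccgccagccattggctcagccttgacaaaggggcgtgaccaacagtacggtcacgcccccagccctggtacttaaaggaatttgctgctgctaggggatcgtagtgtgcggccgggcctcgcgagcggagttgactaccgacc
Epcam, chr17:87635729-87636028, plus strand: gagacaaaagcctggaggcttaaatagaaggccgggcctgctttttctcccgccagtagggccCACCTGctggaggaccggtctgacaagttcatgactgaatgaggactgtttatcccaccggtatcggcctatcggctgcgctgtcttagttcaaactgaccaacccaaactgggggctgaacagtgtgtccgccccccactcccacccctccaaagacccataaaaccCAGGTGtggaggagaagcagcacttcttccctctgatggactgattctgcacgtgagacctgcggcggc
Cldn4, chr5:134946885-134947184, minus strand: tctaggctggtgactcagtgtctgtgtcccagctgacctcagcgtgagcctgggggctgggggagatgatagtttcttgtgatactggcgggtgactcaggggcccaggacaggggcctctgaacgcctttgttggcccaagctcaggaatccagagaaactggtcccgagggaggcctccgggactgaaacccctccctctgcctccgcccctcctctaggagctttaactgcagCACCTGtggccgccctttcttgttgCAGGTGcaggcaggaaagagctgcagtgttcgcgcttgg
Crb3, chr17:57061951-57062250, plus strand: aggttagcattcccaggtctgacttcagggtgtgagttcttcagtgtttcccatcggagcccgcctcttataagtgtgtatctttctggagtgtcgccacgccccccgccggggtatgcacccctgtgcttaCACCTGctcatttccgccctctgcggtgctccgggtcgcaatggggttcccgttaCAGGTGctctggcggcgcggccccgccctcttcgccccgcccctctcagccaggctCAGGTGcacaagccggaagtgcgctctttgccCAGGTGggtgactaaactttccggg
Patj, chr4:98395576-98395875, plus strand: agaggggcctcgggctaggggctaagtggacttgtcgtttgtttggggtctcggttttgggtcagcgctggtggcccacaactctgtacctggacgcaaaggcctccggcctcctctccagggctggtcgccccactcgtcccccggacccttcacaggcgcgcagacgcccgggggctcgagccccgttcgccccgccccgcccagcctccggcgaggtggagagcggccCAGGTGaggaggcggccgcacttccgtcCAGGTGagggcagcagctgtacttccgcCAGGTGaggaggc

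All 4 of these targets had every epithelial array above every mesenchymal one, the reverse of Zeb1 and Zeb2. This order held for 21 of the 23 tested targets, including Cgn, Ovol2 and Jup, whose promoters lacked the hexamer. The share of all genes with this order was not counted. Epcam read 34785, 44402 and 32036 on epithelium 1, 2 and 5, 2373 and 583 on mesenchyme 2 and 3, and 20604 on mesenchyme 1 (4.97 ± 0.544, adjusted p = 0.00182 in limma without mesenchyme 1, and 3.57, adjusted p = 0.13, with it). Cldn4 was higher in epithelium with all arrays (2.24 ± 0.505, adjusted p = 0.0472), as was Patj (1.47 ± 0.313, adjusted p = 0.0393). Crb3, with 4 copies, differed least of the 4 targets (1.16, adjusted p = 0.0783, and 1.22, adjusted p = 0.0235, without mesenchyme 1). Snai1, whose own promoter holds 1 copy, read between 91.2 and 159 on every array. A match of letters is a description of the sequence and shows no binding.

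**Figure D4:**
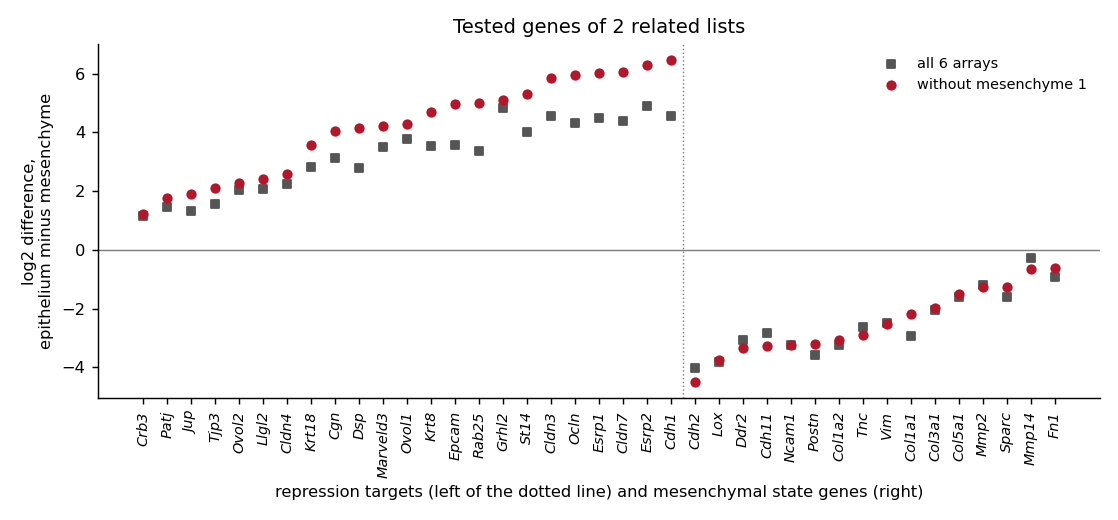
Log2 difference of epithelium minus mesenchyme for the tested repression targets (left) and mesenchymal state genes (right), ordered by the value without mesenchyme 1, with all 6 arrays as squares. All 23 targets lie above 0 and all 16 mesenchymal genes below it; leaving out mesenchyme 1 raises every target, and it moves the mesenchymal genes in both directions, Col1a1 from -2.94 to -2.19 and Cdh2 from -4.02 to -4.51.

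Most genes of the mesenchymal state were higher in mesenchyme in both settings. Of 16 tested, 10 passed with all arrays and 12 without mesenchyme 1, all in that direction, with medians of -2.74 and -2.71. Over all genes tested, 4.03% and 8.17% were higher in mesenchyme. Fn1, Mmp2, Mmp14 and Col5a1 passed in neither fit. The list was chosen as genes of mesenchyme, so its direction was largely set in advance. Vim, Col1a1, Col1a2 and Col3a1 are also among the mesenchymal markers. Vim, the intermediate filament vimentin, read 9984, 9671 and 10185 on epithelium 1, 2 and 5 and 54917, 55657 and 59268 on mesenchyme 1, 2 and 3, so the layers were far apart and mesenchyme 1 was no exception (-2.51 ± 0.134, 5.68-fold, adjusted p = 0.00146). Cdh2, or N-cadherin, differed by -4.02 ± 0.428 (16.2-fold, adjusted p = 0.00477), Lox, which cross-links collagen, by -3.83, and Postn, the matrix protein periostin, by -3.57. Without mesenchyme 1 the differences were -2.51 for Vim, -4.51 for Cdh2, -3.75 for Lox and -3.21 for Postn. These lists were drawn up with earlier results of these data known.

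Proteins that work with the factors were taken in 3 lists, to be read against the shares of all genes given above. Of 7 bHLH partners and Id inhibitors, which pair with Twist proteins or block them, none passed with all arrays and 1 without mesenchyme 1 (Id4, -0.95, adjusted p = 0.0309, named after its value was seen). The E proteins Tcf12 and Tcf4, partners of Twist, had differences of -0.03 (adjusted p = 0.946) and -0.51 (adjusted p = 0.247). Of 18 genes listed as co-repressors of Snail and Zeb, 1 was higher in each layer in limma. Ajuba, a LIM protein that binds Snail, was higher in epithelium (1.11 ± 0.163, adjusted p = 0.0115). Lats2, a kinase rather than a co-repressor, was higher in mesenchyme (-1.70 ± 0.308, adjusted p = 0.023). Both passed without mesenchyme 1 (1.23 and -1.75). Of 10 genes of Snail protein turnover, 0 passed in either limma fit, the brightest being Fbxo45 (0.23, adjusted p = 0.687) and Fbxo11 (0.21, adjusted p = 0.811).

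Among inputs of the TGF-beta pathway, a known inducer of these factors, 2 of 10 were higher in mesenchyme. Tgfb3, a ligand, read 307, 326 and 393 on epithelium 1, 2 and 5 and 3501, 3685 and 3829 on mesenchyme 1, 2 and 3, with no overlap and little spread (-3.37 ± 0.289, 10.3-fold, adjusted p = 0.00358). The receptor Tgfbr2 differed by -2.08 ± 0.309 (4.23-fold, adjusted p = 0.0119). Without mesenchyme 1 these were -3.50 and -1.88, and the ligand Tgfb2 passed as well (-2.06, adjusted p = 0.011, named after its value was seen).

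Of 8 tested Twist-related bHLH genes, none passed with all arrays and 2 without mesenchyme 1, both higher in mesenchyme. Hand2, a factor of limb, heart and gut mesenchyme, read 404, 424 and 582 on epithelium 1, 2 and 5, 12687 and 11014 on mesenchyme 2 and 3, and 1011 on mesenchyme 1 (-3.45, adjusted p = 0.0805 with all arrays; -4.71 ± 0.275, 26.2-fold, adjusted p = 0.000607 without mesenchyme 1). Like Twist1 and Prrx2, it was therefore far lower on mesenchyme 1 than on the other mesenchymal arrays. Tcf21, named after its value was seen, was the other gene (-2.06, adjusted p = 0.0339), and Msc gave -1.19 (adjusted p = 0.0739). Of the Snail relatives, Snai3 and Scrt1 did not pass in either fit (0.84, adjusted p = 0.392, and -0.59, adjusted p = 0.579, with all arrays). Of 5 paired-related homeobox genes tested, Phox2a passed without mesenchyme 1 (-3.08, adjusted p = 0.0104) and not with it (-1.95, adjusted p = 0.316), and Shox2 passed in neither fit (-3.39, adjusted p = 0.0644, and -3.11, adjusted p = 0.0657).

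Markers of other cell types moved with the mesenchymal layer too. With all arrays 4 of 6 endothelial markers passed (5 of 6 without mesenchyme 1), 4 of 6 of neurons (4 of 6), 4 of 4 of skeletal muscle (4 of 4), 2 of 7 of smooth muscle (3 of 6), 2 of 5 of neural crest and glia (2 of 5) and 1 of 6 of cartilage and bone (1 of 5), all higher in mesenchyme. Erbb3, a further marker of neural crest and glia, was higher in epithelium without mesenchyme 1 (1.37, adjusted p = 0.0118) and missed the threshold with it (1.20, adjusted p = 0.0513). None of 7 leukocyte markers passed with all arrays (2 without mesenchyme 1), and none of 5 erythroid markers in either fit. Of the 10 epithelial markers 2 passed, higher in epithelium, and all 10 without mesenchyme 1; of the 10 mesenchymal markers 5 passed, higher in mesenchyme, and 7 without mesenchyme 1. Sox10, which defines neural crest and glia, read 134 to 257 on all arrays with overlapping layers. Markers of liver, lung, pancreas, heart and epidermis summed to 333680.0 on mesenchyme 1 and to 2077 to 20526 elsewhere; none of 8 tested passed with all arrays, and without mesenchyme 1 it was 1 of 5, higher in epithelium. Summed signal on the epithelial and the mesenchymal arrays was 993 to 1683 and 24442 to 34937 for neurons, 4906 to 10851 and 24628 to 53025 for smooth muscle, 17205 to 24706 and 8491 to 17749 for neural crest and glia (of which Erbb3 made up 16817 to 24263 and 6444 to 11721), 2192 to 2607 and 6537 to 27225 for cartilage and bone, and 11467 to 50806 and 18144 to 58653 for erythroid cells. The share of these cells in the signal of the factors was not tested.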

How the data were processed

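The deposited table holds 1 linear probe set intensity per array. Per the labels, total RNA was amplified in 2 rounds and biotin-labelled, and the submitters' processing notes name GCOS, without settings. Without the top and bottom 2% of probe sets each array averaged 1500 units, so the authors scaled the intensities. Array medians ran from 126 to 254, and 3 arrays per layer limit the precision.

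Values were taken as log2(signal + 16), which understates the change of dim genes, and quantile normalized without 64 control probe sets. Of 45101 probe sets, 34945 name 1 gene. Probe sets with a mean above the 40th percentile were kept, the brightest per gene. The comparison of the layers used limma 3.58.1 (R 4.3.3) with an intensity trend and no covariate, p-values being adjusted over all genes by Benjamini-Hochberg, on all 6 arrays and with every step redone without mesenchyme 1. The code was tested on simulated data.

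Named were the 8 factors, Cdh1, Vim, up to 3 genes per direction of each related list (the 2 brightest where fewer than 2 passed), and the 3 nearest genes, _x_at sets left out. Members, the 9 related and 11 marker lists and the tests were chosen with earlier results of these data known. Alternatives were other offsets, normalizations, filters, probe set rules, no variance trend, a block for the replicate number, and leaving out each array.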

Additional observations from a re-analysis of the deposited data

How the results depend on the processing

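Zeb1, Zeb2, Prrx1, Prrx2, Twist1 and Twist2 kept a higher mesenchymal signal under all alternatives run in both fits, and 6 of the 8 factors passed without mesenchyme 1 under every offset, normalization, filter, probe set and variance setting. Leaving out 1 array moved the genes past the threshold from 820 to between 142 (without epithelium 1) and 1975 (without mesenchyme 1), and the factors past it from 3 to between 1 and 6; without mesenchyme 1, leaving out another array gave 649 to 3878 genes and 4 to 6 factors. When mesenchyme 2 or 3 was the one left out, the lone mesenchymal array was assumed to vary like the epithelial ones. With the replicate number as a block, 0 genes and 0 factors passed in limma (1460 genes and 3 factors at an unadjusted p under 0.05; Zeb1 at -3.29, adjusted p = 0.101). Only the numbers 1 and 2 occur in both layers, so the layer difference then rests on those arrays, mesenchyme 1 among them. This fit therefore has little power. The deviations of same-numbered arrays correlated at r = -0.05 and -0.02. With 3 arrays per layer, 2 shared numbers and other-tissue signal on mesenchyme 1, these values cannot decide whether the arrays were paired. The sample titles give the number without its meaning, so it is not taken as a pairing. Without mesenchyme 1 the block could not be fitted. Values near 0 changed sign: over single arrays left out, Snai2 ran from -0.19 to 0.32, and Snai1, without mesenchyme 1, from -0.0585 to 0.18. Of the pair differences, Snai1 minus Snai2 was -0.13 without normalization and with median centring and ran from -0.11 to 0.25 over single arrays left out, Zeb1 minus Zeb2 was -0.26 with the mean of probe sets and from -0.10 to 0.91 over single arrays left out, and Prrx1 minus Prrx2 was 0.57 with the mean of probe sets and ran from -1.24 to 0.18, the last without mesenchyme 1. Depth is not defined for arrays, and without detection calls the signal of Snai1 has no bound.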
